A study of Mus musculus with 7 samples.

Results

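The genes described here are 43 regulators of programmed cell death and transcriptional targets of p53, read in epithelial tumour cells of the mouse colon with and without the RNA-binding protein gene Mex3a. A gene was followed where a probe set of the array was paired by the platform annotation with its symbol alone. This held for 40 of the 43 genes, among 17097 genes with such a probe set on the array, and 39 of them also passed the filter on low levels that left 12822 genes to test. Bax, Ripk1 and Trp53 had no such probe set and were not analysed here, and Fas lay below the filter.

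There were 3 arrays labelled KO, taken here as the Mex3a tom/flox mice, and 4 labelled WT, taken as the Mex3a Tom/+ mice, since the labels do not pair these names. All animals also carried Villin CreERT2, a tamoxifen-dependent recombinase under a promoter of the gut epithelium, and 1 floxed Apc allele (APC fl/+). All received 4 injections of tamoxifen, then 2% dextran sulfate sodium (DSS), an agent of colitis, in the drinking water for 5 days, and colon adenomas were taken 2 months after DSS ended. Cells were sorted for the epithelial surface protein Epcam and for Tomato, the reporter of the Mex3a promoter, so that both groups hold cells with an active Mex3a promoter and a Tom allele. The sources used here do not state strain, sex or age. Nor do the labels tie arrays to individual animals, and p-values therefore reflect only how far these arrays spread, some of which may be technical.

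The intrinsic pathway of apoptosis is decided at the mitochondrion. BCL2-type survival proteins hold the pore formers BAX and BAK in check, BH3-only proteins relieve that restraint after stress, and cytochrome c released through the pore assembles APAF1 and caspase-9 into the apoptosome. Inhibitor of apoptosis (IAP) proteins restrain caspases or signalling at death receptors, which start the extrinsic pathway through FADD and caspase-8 or, where caspases are blocked, necroptosis through RIPK3 and MLKL. p53 feeds both arms by inducing genes such as Bbc3, Pmaip1, Apaf1, Fas, Perp and Phlda3, and in the gut epithelium it drives death of crypt cells after DNA damage.

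Values are log2 levels per probe set, so that a difference of 1 is a doubling, and levels of different probe sets are not compared with each other. The median over all probe sets of an array lay between 5.96 and 5.97 in KO and between 5.96 and 6.00 in WT. Mex3a itself was at 6.18, 6.29 and 6.07 in the KO arrays, against 7.41, 7.38, 7.50 and 7.01 in the WT arrays, without overlap. All 11 epithelial markers listed for this work passed the level filter, with a mean level of 10.01 to 10.44 in KO and 10.10 to 10.28 in WT. Of 23 measured leukocyte markers 16 passed, and their mean level was 6.72 to 6.88 in KO and 6.68 to 6.85 in WT. The markers below the filter, a minority of the list, included Ptprc, Cd3e, Itgam, Adgre1 and Ms4a1. Of the 16 that passed, 7 had a positive and 9 a negative difference, from -0.12 to 0.39, with a median of -0.02. At an unadjusted p under 0.05 in limma stood 1 of them, higher in KO (6.25%, against 11.4% of all genes). Goblet cell markers had a positive difference in 5 of 6 tested genes, with a median of 0.45, 3 of at least 0.5 and 0 past the threshold in limma. Relative to the mean of the 7 arrays, their list mean was -0.17, 0.41 and 0.54 in KO, against -0.80, 0.24, 0.09 and -0.30 in WT, with overlap. Fibroblast markers stood apart in KO replicate 2, at 0.59, and in WT replicate 3, at 0.48, where the other arrays lay between -0.28 and -0.14. The part of these lists in the values below was not tested. In sorted bulk cells, fewer cells of a type and less RNA per cell cannot be told apart.

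No member passed the threshold. In limma with scan batch in the fit, 0 of 39 tested members had an adjusted p under 0.05, which also held for 0% of all 12822 genes tested, and the smallest adjusted p among the members was 0.329. At an unadjusted p under 0.05 in limma stood 8 members (20.5%), against 11.4% of all genes. Higher in KO were 6 of them, Casp1, Casp12, Apaf1, Birc2, Xiap and Perp (15.4% of the members, against 7.14% of all genes), and lower were Bcl2l1 and Tnfrsf10b (5.13%, against 4.26%). The count was 16 without KO replicate 1, where 19.7% of all genes also stood under that p, and 5 without KO replicate 3, with 5.57% of all genes. For 4 members, Bad, Apaf1, Birc2 and Perp, the lowest KO array stood above the highest WT array, which is 10.3% of the members, against 2.68% of all genes. The opposite order held for 0 members, against 3.23% of all genes, and either order for 5.91% of all genes. Over the 39 members 22 differences were positive and 17 negative, with a median of 0.04, where the median over all genes was -0.02. With each array left out in turn, Casp1, Apaf1, Birc2, Perp and Bcl2l1 stayed at an unadjusted p under 0.05 in all 7 limma fits (12.8% of the members, against 2.77% of all genes).

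**Figure D1:**
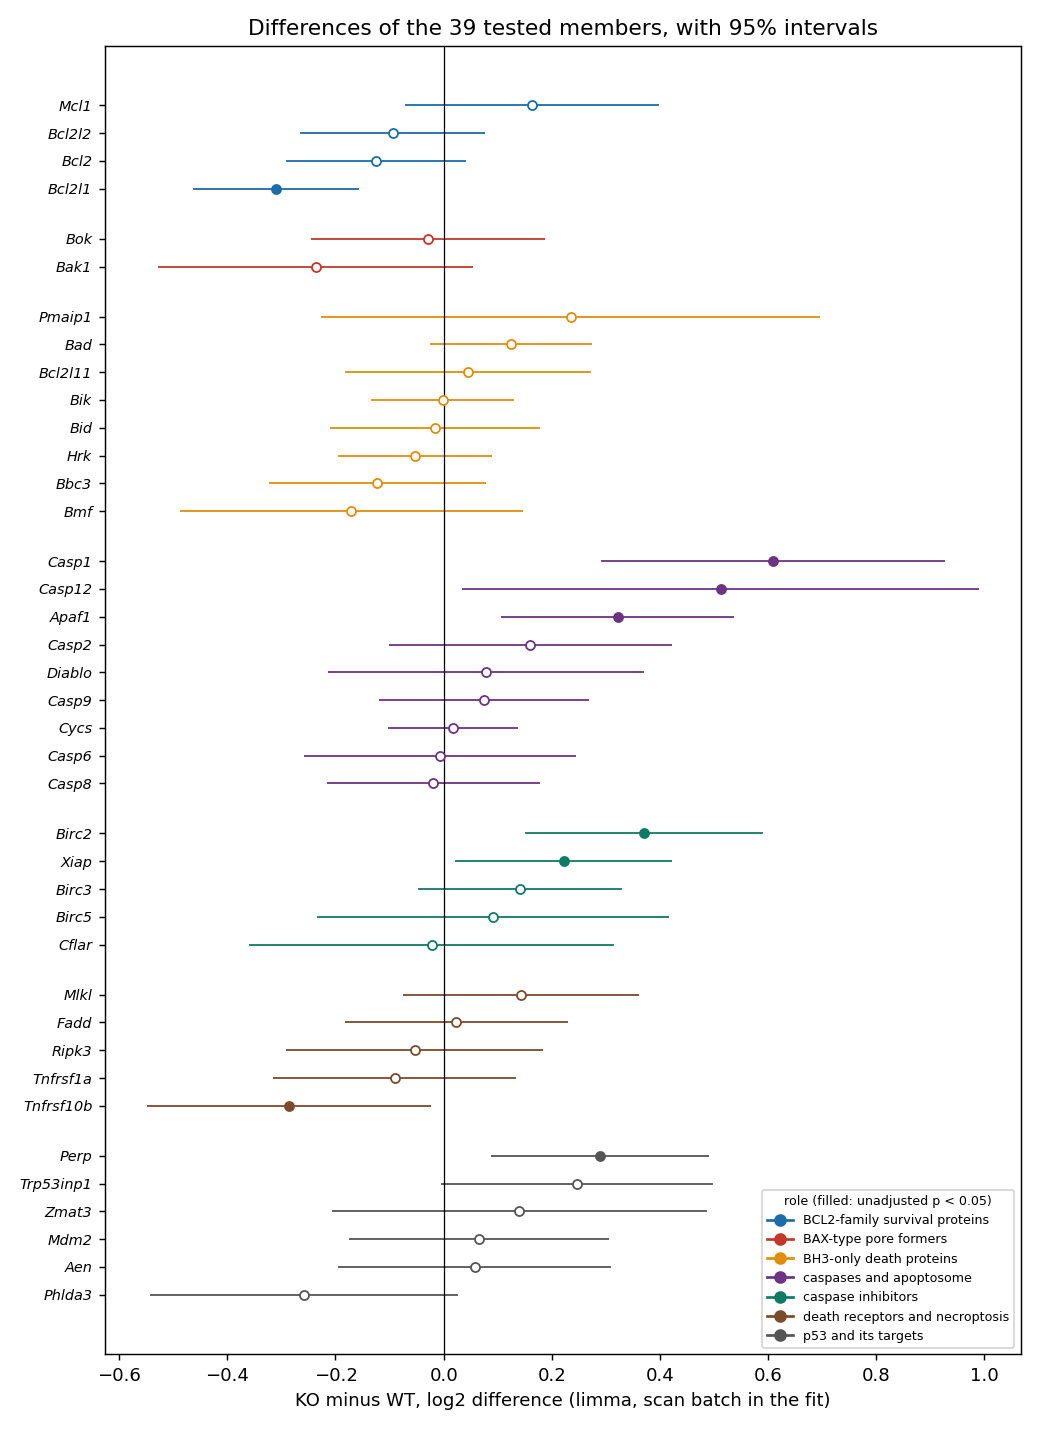
KO minus WT difference of each of the 39 tested members on the log2 scale (x axis), with 95% intervals from the limma fit, by role. Filled points stand at an unadjusted p under 0.05; of these 8, 6 lie to the right of zero and Bcl2l1 and Tnfrsf10b to the left, and the widest of the 8 intervals, that of Casp12, runs from 0.03 to 0.99.

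The caspases and the apoptosome gave the widest differences. Of 9 tested genes 7 had a difference above zero (77.8%, against 43.9% of all genes), and the median was 0.08. At an unadjusted p under 0.05 in limma stood 3, all higher in KO (33.3%, against 7.14% of all genes). Casp1, the caspase of the inflammasome that processes interleukin-1 beta and interleukin-18 and cleaves gasdermin D, was at 7.97, 7.48 and 8.04 in the KO arrays, against 7.48, 7.27, 7.17 and 7.12 in the WT arrays. KO replicates 1 and 3 lay above every WT array, and KO replicate 2 carried the same value as WT replicate 1. KO arrays averaged 7.83 ± 0.30 (SD, n = 3), against 7.26 ± 0.16 (SD, n = 4) for WT arrays, a difference of 0.61 (SE 0.14) or 1.53-fold (limma, unadjusted p = 0.00229, adjusted p = 0.353). The two-sided exact permutation p was 0.0571 over the 35 splits of the arrays, where 0.0286 is the smallest possible. Within scan batch the KO minus WT difference was 0.60 in batch 1, with its 1 KO array, and 0.62 in batch 2.

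Casp12, an inflammatory-group caspase linked in mice to stress of the endoplasmic reticulum, was at 8.48, 7.62 and 8.52 in the KO arrays, against 7.87, 7.78, 7.48 and 7.82 in the WT arrays. Again KO replicates 1 and 3 stood above every WT array, while KO replicate 2 lay inside the WT range. The difference was 0.51 (SE 0.21) in limma (unadjusted p = 0.0386, adjusted p = 0.426), and it was 0.31 without KO replicate 3. These 2 genes were the only tested members with a difference of at least 0.5 in size, a size reached by 1.27% of all genes. They lie on chromosome 9 with 1 protein-coding gene between them, Casp4, which encodes the receptor caspase for cytosolic lipopolysaccharide. Casp4 was at 9.02, 8.15 and 8.60 in the KO arrays, against 8.72, 8.12, 8.25 and 8.12 in the WT arrays, with a difference of 0.35 (SE 0.18). Its highest array was KO replicate 1, and KO replicate 3 lay below WT replicate 1.

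Interferon-stimulated genes shared only the lowest KO array with Casp1 and Casp12, and the full order of KO arrays with Casp4. Over 15 tested genes and relative to the mean of the 7 arrays, their list mean stood at 0.42, -0.21 and 0.13 in KO, against 0.29, -0.33, -0.14 and -0.17 in WT, where WT replicate 1 was above KO replicate 3. KO replicate 2 was the lowest KO array for the list, for Casp1, for Casp12 and for Casp4. Of the 15 genes 13 had a positive difference (86.7%, against 43.9% of all genes), with a median of 0.27. At an unadjusted p under 0.05 in limma stood 3 of the 15 (20%, against 11.4% of all genes), and 0 passed the threshold. Ifih1, a sensor of double-stranded RNA, had a difference of 0.71, Oasl2 of 0.28 and Stat2 of 0.41. The part of the interferon-stimulated genes in the caspase values was not tested. The leukocyte list mean lay between -0.07 and 0.09 in KO and between -0.11 and 0.06 in WT on the same scale, and its part in the caspase values was not tested. KO replicate 3, the highest array for Casp1 and Casp12, was also the highest for this list, and KO replicate 1, the next highest for both, was the lowest KO array for it.

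**Figure D2:**
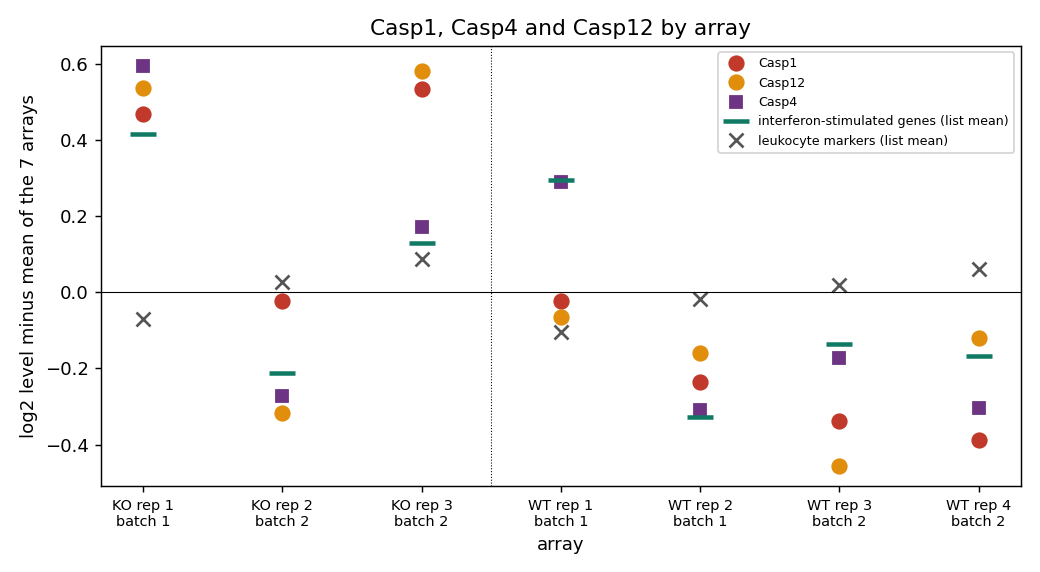
Log2 level of Casp1, Casp4 and Casp12 on each array, and the list means of interferon-stimulated genes and leukocyte markers, each as the difference from its mean over the 7 arrays (y axis), with KO arrays left of the dotted line. KO replicates 1 and 3 lie above zero for all 3 caspases, and KO replicate 2 lies below zero for all of them.

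The 250 bases upstream of the annotated starts of Casp1 and Casp12 are shown because these neighbouring genes carried the widest differences among the members. Both are from RefSeq, build GRCm38.p6, plus strand, 5′ to 3′, at chr9:5298267-5298516 for Casp1 and chr9:5345226-5345475 for Casp12. Capitals mark the gamma-activated motif TTCNNNGAA, to which STAT proteins bind.
Casp1: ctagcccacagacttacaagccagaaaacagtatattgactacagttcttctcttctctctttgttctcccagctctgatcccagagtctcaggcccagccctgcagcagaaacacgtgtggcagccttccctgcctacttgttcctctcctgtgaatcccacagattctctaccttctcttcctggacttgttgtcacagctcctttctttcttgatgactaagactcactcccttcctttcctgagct
Casp12: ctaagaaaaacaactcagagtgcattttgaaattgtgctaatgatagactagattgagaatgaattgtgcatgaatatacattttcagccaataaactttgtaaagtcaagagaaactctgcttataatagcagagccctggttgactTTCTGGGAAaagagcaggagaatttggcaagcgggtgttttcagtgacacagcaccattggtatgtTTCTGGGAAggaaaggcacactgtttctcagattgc
The Casp12 window held 2 copies of the motif, both with the letters TTCTGGGAA, and the Casp1 window held 0. On either strand, 7.02% of 32851 windows of this length held the motif, as did 4 of the 50 windows of the 37 members with an entry, those of Casp12, Fas, Ripk1 and Tnfrsf1a. The interferon-stimulated response motif was in 2.98% of all windows and in 0 of the members' 50. A decamer of the p53 response element was in 7.13% of all windows and in 6 of the members' 50, those of Aen, Bax, Birc5, Bmf, Mdm2 and Trp53. Such matches are letters in a short window and say nothing of binding here.

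Apaf1, the scaffold of the apoptosome and a p53 target, was at 9.09, 9.13 and 8.97 in the KO arrays, against 8.78, 8.95, 8.71 and 8.61 in the WT arrays. The groups did not overlap, with KO replicate 3 and WT replicate 2 close to each other. Over all splits the exact permutation p was 0.0571, and within scan batch it was 0.111. The difference was 0.32 (SE 0.09) in limma (unadjusted p = 0.00887, adjusted p = 0.388), 0.23 within scan batch 1 and 0.39 within scan batch 2. Its other probe set differed by the same 0.32 (SE 0.11), but there the KO arrays, at 8.12, 8.04 and 8.03, overlapped with the WT arrays of scan batch 1, at 8.02 and 8.08, and lay above those of batch 2, at 7.53 and 7.56. The remaining 6 genes of the group, which are Casp2, Casp6, Casp8, Casp9, Cycs (cytochrome c) and Diablo (an antagonist of IAP proteins), had differences between -0.02 and 0.16. Casp8, the initiator caspase of death receptors, was at 10.12, 10.09 and 10.04 in the KO arrays, against 10.26, 10.06, 10.19 and 9.96 in the WT arrays, with a 95% interval of the difference from -0.22 to 0.18. The second probe set of Cycs differed by 0.22 (SE 0.08), with KO arrays at 9.57, 9.47 and 9.48, against WT arrays at 9.35, 9.47, 9.17 and 9.27, and KO replicate 2 and WT replicate 2 were nearly level.

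Among the inhibitors of caspases 4 of 5 tested genes had a positive difference (80%, against 43.9% of all genes), and the median was 0.14. Birc2 and Xiap stood at an unadjusted p under 0.05 and higher in KO (40%, against 7.14% of all genes), and 0 passed the threshold in limma. Birc5 and Cflar took opposite signs in the scan batches. Birc2, which encodes cIAP1, a ubiquitin ligase of the TNF receptor complex, was at 6.73, 6.74 and 6.75 in the KO arrays, against 6.63, 6.57, 6.22 and 6.20 in the WT arrays. The KO arrays lay within 0.02 of each other and above every WT array, and the WT arrays split by scan batch. The difference was 0.37 (SE 0.10) or 1.29-fold in limma (unadjusted p = 0.00479, adjusted p = 0.388), 0.13 within scan batch 1 and 0.53 within scan batch 2.

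Xiap, the direct inhibitor of caspases 3, 7 and 9, was at 7.09, 6.96 and 7.02 in the KO arrays, against 6.86, 7.07, 6.75 and 6.65 in the WT arrays. WT replicate 2 lay among the KO arrays, and the difference was 0.22 (SE 0.09; limma, unadjusted p = 0.0338, adjusted p = 0.417). All 5 Xiap probe sets above the filter had a positive difference, from 0.003 to 0.22. Birc3, which encodes cIAP2 and is the chromosomal neighbour of Birc2, was at 7.42, 7.29 and 7.29 in the KO arrays, against 7.31, 7.12, 7.17 and 7.20 in the WT arrays. There WT replicate 1 lay inside the KO range, and the difference was 0.14 (SE 0.08; limma, adjusted p = 0.521).

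Birc5, which encodes survivin, a protein of the chromosomal passenger complex made in dividing cells, was at 8.91, 9.40 and 9.43 in the KO arrays, against 9.03, 9.33, 9.07 and 9.09 in the WT arrays. KO replicate 1 was the lowest of all arrays and the other KO arrays the highest. For 19 mitosis genes the list mean, relative to the mean of the 7 arrays, showed the same order at -0.21, 0.04 and 0.16 in KO, against -0.03, 0.03, -0.02 and 0.03 in WT; their part in the Birc5 values was not tested. Cflar, the FLIP protein that blocks caspase-8, was at 8.05, 8.35 and 8.36 in the KO arrays, against 8.50, 8.50, 8.08 and 8.11 in the WT arrays. Its KO minus WT difference was -0.45 within scan batch 1 and 0.26 within scan batch 2, so that the fitted difference of -0.02 (SE 0.15) averages opposite signs.

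**Figure D3:**
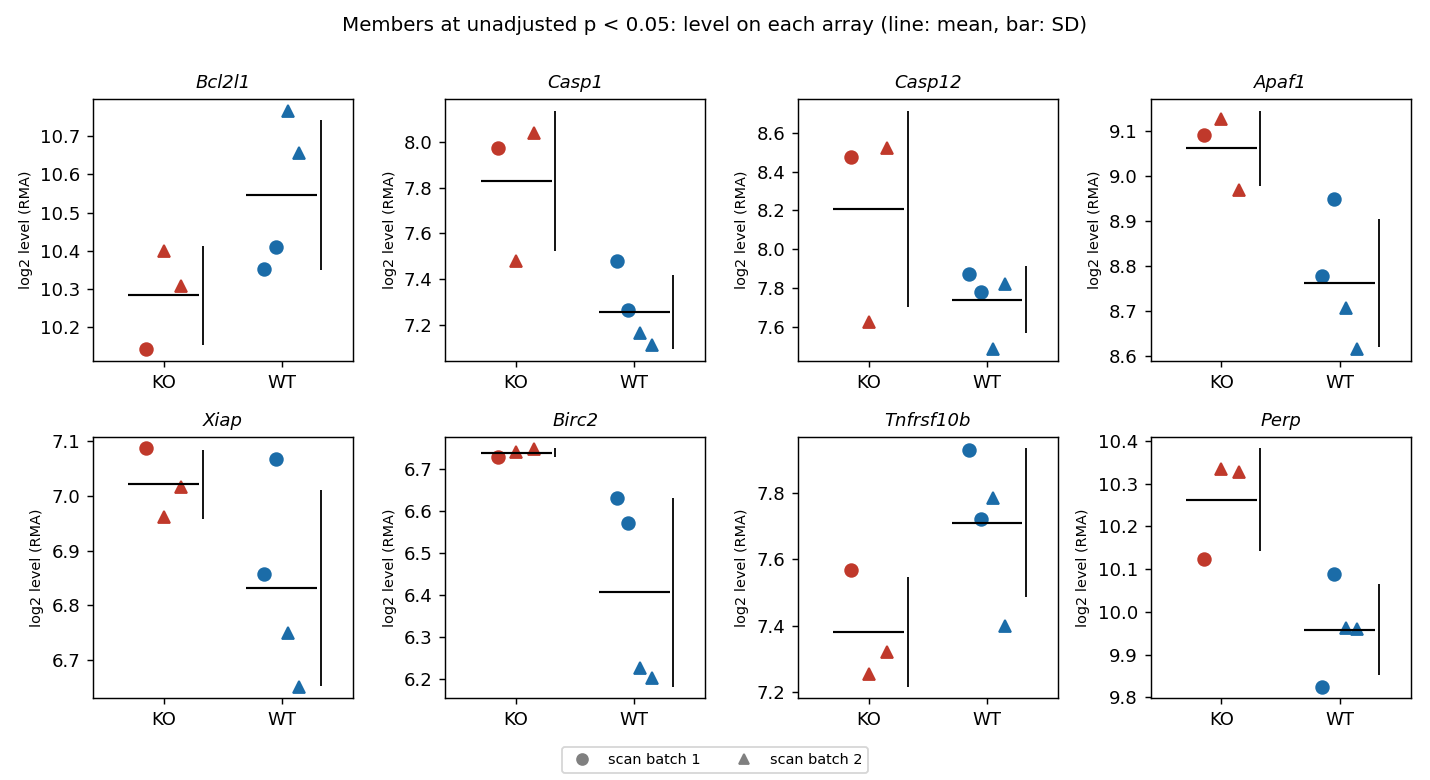
Log2 level (y axis, its range set for each gene) on each KO array (left) and WT array (right) of the 8 members at an unadjusted p under 0.05; circles are scan batch 1, triangles scan batch 2, horizontal lines group means and vertical bars SD. The arrays do not overlap for Apaf1, Birc2 and Perp, and KO replicate 2 lies low for Casp1 and Casp12.

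Among the 4 BCL2-type survival genes 3 had a negative difference, with a median of -0.11. Bcl2l1, which encodes the survival protein BCL-XL, was at 10.14, 10.40 and 10.31 in the KO arrays, against 10.35, 10.41, 10.77 and 10.66 in the WT arrays. The ranges overlapped over the pooled arrays, but within each scan batch every KO array lay below every WT array. That order within batches also held for Bcl2, Bcl2l2, Bbc3 and Tnfrsf10b. The reverse order held for Casp1, Xiap, Birc3 and the members without overlap. The share of all genes with either order was not counted. KO arrays averaged 10.28 ± 0.13 (SD, n = 3), against 10.55 ± 0.20 (SD, n = 4) for WT arrays. The fitted difference was -0.31 (SE 0.07), a level 1.24-fold lower, and had the smallest p of all members (limma, unadjusted p = 0.00164, adjusted p = 0.329). The exact permutation p was 0.143 over all splits and, on batch-centred values, 0.0556 over the 18 arrangements within scan batch, the smallest possible. Without centring it was 0.167. Bcl2, Bcl2l2, Bad, Casp1 and Birc2 reached the same 0.0556 in that batch-centred permutation test, and the share of all genes that do was not computed. A second probe set gave -0.26 (SE 0.06), while the remaining one above the filter gave 0.0059 (SE 0.08).

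Bcl2 was at 9.91, 10.05 and 9.88 in the KO arrays, against 10.01, 9.97, 10.15 and 10.09 in the WT arrays. Its difference was -0.12 (SE 0.07), with overlap over the pooled arrays but not within scan batch, and 0.20 (SE 0.11) on its other probe set. Mcl1, a short-lived survival protein, was at 9.36, 9.57 and 9.64 in the KO arrays, against 9.35, 9.50, 9.25 and 9.33 in the WT arrays. KO replicates 2 and 3 were above every WT array and KO replicate 1 was level with WT replicate 1, and the difference of 0.16 (SE 0.10) had an adjusted p of 0.545 (limma). Bcl2l2, which encodes BCL-W, differed by -0.09 (SE 0.07), and 1 of its other probe sets by 0.34 (SE 0.12).

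The genes that open the mitochondrial pore gave no member at an unadjusted p under 0.05. Bak1, the pore former BAK, was at 9.40, 9.48 and 9.53 in the KO arrays, against 9.81, 9.36, 9.91 and 9.63 in the WT arrays. WT replicate 2 lay below all KO arrays and the other WT arrays above them, with a difference of -0.24 (SE 0.13; limma, adjusted p = 0.490). The suffix of this probe set marks probes that several transcripts share, and the other Bak1 probe set differed by 0.13 (SE 0.08). Bok, a BAX relative, was at 8.14, 8.31 and 8.34 in the KO arrays, against 8.26, 8.14, 8.46 and 8.21 in the WT arrays, a difference of -0.03 with a 95% interval from -0.25 to 0.19.

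Of the 8 BH3-only genes 3 had a positive and 5 a negative difference, with a median of -0.01. Bad, the sentinel that survival signals inactivate by phosphorylation, was at 10.42, 10.35 and 10.44 in the KO arrays, against 10.19, 10.28, 10.30 and 10.33 in the WT arrays. No array overlapped, the exact permutation p was 0.0286, and the difference was 0.12 (SE 0.06, limma adjusted p = 0.479). The other Bad probe set differed by 0.07 (SE 0.14) with overlap, by -0.24 within scan batch 1 and by 0.28 within scan batch 2. Bbc3, which encodes PUMA, the main p53-induced killer of gut crypt cells in mice, was at 7.25, 7.32 and 7.38 in the KO arrays, against 7.56, 7.37, 7.39 and 7.43 in the WT arrays. Only KO replicate 3 reached into the WT range, and the difference was -0.12 (SE 0.09; limma, adjusted p = 0.578).

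Bmf, a BH3-only protein released on loss of attachment, was at 9.35, 8.80 and 8.83 in the KO arrays, against 9.45, 9.03, 9.21 and 9.13 in the WT arrays. KO replicates 2 and 3 were below every WT array and KO replicate 1 was above all but WT replicate 1. The difference was 0.11 within scan batch 1 and -0.36 within scan batch 2, and -0.17 (SE 0.14) in the fit. Pmaip1, the p53-induced NOXA, ranged from 7.34 to 7.42 over the KO arrays and from 6.68 to 7.85 over the WT arrays, which lay on both sides. Hrk, Bid, Bik and the main Bcl2l11 probe set differed by -0.05 to 0.04. Bcl2l11, which encodes BIM, had 5 probe sets above the filter, and only the main probe set had a positive difference. The others differed by -0.009, -0.07, -0.13 and -0.46, the last with SE 0.14 and an unadjusted p of 0.0123 in limma. On that last probe set the KO arrays were at 6.87, 7.86 and 7.86, against 7.66, 7.82, 8.05 and 8.07 in the WT arrays. There KO replicate 1 stood alone.

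Death receptor and necroptosis genes held 5 tested members, 2 with a positive and 3 with a negative difference. Tnfrsf10b, the mouse receptor for TRAIL and a p53 target, was at 7.57, 7.25 and 7.32 in the KO arrays, against 7.93, 7.72, 7.79 and 7.40 in the WT arrays. Within each scan batch every KO array lay below every WT array, as for Bcl2l1, Bcl2, Bcl2l2 and Bbc3, and pooled, WT replicate 4 reached into the KO range. The difference was -0.29 (SE 0.11) in limma (unadjusted p = 0.0364, adjusted p = 0.420), on a probe set whose probes several transcripts share, and -0.08 (SE 0.21) on the other. Tnfsf10, the TRAIL ligand, which is not among the 43 genes, was at 7.57, 8.11 and 7.60 in the KO arrays, against 6.92, 7.50, 7.33 and 7.23 in the WT arrays. Those arrays did not overlap, with KO above WT, as held for 2.68% of all genes. The difference was 0.49 (SE 0.17), with an adjusted p of 0.414 in limma.

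Mlkl, the executioner of necroptosis, was at 7.33, 7.46 and 7.41 in the KO arrays, against 7.41, 7.35, 7.19 and 7.12 in the WT arrays, a difference of 0.14 (SE 0.09) with overlap. Tnfrsf1a, the main TNF receptor of epithelium, was at 7.26, 7.34 and 7.35 in the KO arrays, against 7.36, 7.09, 7.54 and 7.50 in the WT arrays, a difference of -0.09 (SE 0.10). Neither passed the threshold, and the ranges of both overlapped. Ripk3, the kinase that activates MLKL, and Fadd, the adaptor of FAS, differed by -0.05 and 0.02, with 95% intervals from -0.29 to 0.18 and from -0.18 to 0.23. Fas, the receptor itself, lay below the filter with 4.73 ± 0.03 (SD, n = 3) for KO arrays, against 4.73 ± 0.12 (SD, n = 4) for WT arrays.

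The p53 targets held values on both sides of zero. Of 6 tested genes the difference on the probe set used was above zero in 5, and the median was 0.10. Perp, a p53 and p63 target that is also a protein of desmosomes, was at 10.12, 10.33 and 10.33 in the KO arrays, against 9.83, 10.09, 9.96 and 9.96 in the WT arrays. The arrays did not overlap, and the exact permutation p was 0.0286 over all splits and 0.111 within scan batch. KO arrays averaged 10.26 ± 0.12 (SD, n = 3), against 9.96 ± 0.11 (SD, n = 4) for WT arrays, with a fitted difference of 0.29 (SE 0.09) or 1.22-fold (limma, unadjusted p = 0.0107, adjusted p = 0.397).

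Phlda3, a p53-induced inhibitor of AKT, went to the other side, at 7.36, 7.70 and 7.70 in the KO arrays, against 7.95, 7.70, 7.67 and 7.96 in the WT arrays. KO replicate 1 was the lowest array, the other KO arrays were level with WT replicates 2 and 3, and the difference was -0.26 (SE 0.12; limma, adjusted p = 0.462). Trp53inp1, a stress-induced partner of p53, was at 9.97, 10.002 and 10.10 in the KO arrays, against 10.06, 9.99, 9.60 and 9.62 in the WT arrays. The WT arrays of scan batch 1 lay among the KO arrays. The difference was -0.05 within batch 1, 0.44 within batch 2 and 0.25 (SE 0.11) in the fit. The other Trp53inp1 probe set differed by -0.06 (SE 0.12). Mdm2, which encodes the p53 ubiquitin ligase and is a feedback target of p53, was between 9.21 and 9.40 in KO and between 9.05 and 9.39 in WT, a difference of 0.07 (SE 0.10). Aen, a p53-induced nuclease, and Zmat3, a p53-induced RNA-binding protein, differed by 0.06 and 0.14. The other Aen probe set above the filter differed by -0.25 (SE 0.11).

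Further p53 targets outside the 43 genes were likewise mixed. Of 36 tested, 17 had a positive and 19 a negative difference, with a median of -0.02, and 0 passed the threshold. At an unadjusted p under 0.05 in limma, 3 were higher (8.33%, against 7.14% of all genes) and 4 lower (11.1%, against 4.26%). The 3 with the smallest p were Xpc, a DNA damage sensor, at 0.40 (SE 0.12), Dcxr, a sugar reductase, at -0.27 (SE 0.09), and Siva1, an apoptosis-inducing factor, at 0.17 (SE 0.07). Xpc and Dcxr did not overlap between KO and WT arrays (5.56% of the 36, against 5.91% of all genes), and Siva1 did. Cdkn1a, the p53-induced cell cycle inhibitor p21, ranged from 10.72 to 10.93 over the KO arrays and from 10.81 to 10.88 over the WT arrays, with a difference of -0.03 (SE 0.06). It was looked up after the values were seen.

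Among 46 further genes of the death machinery the difference was above zero in 29, and the median was 0.02. At an unadjusted p under 0.05 in limma, 3 were higher (6.52%, against 7.14% of all genes) and 3 lower (6.52%, against 4.26%). The threshold was passed by 0. Arrays did not overlap for 3 of the 46 (6.52%), against 5.91% of all genes. Tradd, the adaptor of TNF receptor 1, was at 8.56, 8.82 and 8.74 in the KO arrays, against 9.01, 8.88, 9.24 and 9.20 in the WT arrays. It did not overlap, and neither did Parp1, a DNA repair enzyme cleaved by caspases, at 9.08, 9.12 and 9.13 in the KO arrays, against 9.52, 9.33, 9.55 and 9.44 in the WT arrays. Their differences were -0.42 (SE 0.08) and -0.36 (SE 0.08), with adjusted p = 0.329 and 0.366 in limma. Bfar, a regulator of apoptosis at the endoplasmic reticulum, differed by 0.28 (SE 0.08) with overlap.

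How far a member's difference depended on the probe set was visible from the 74 member probe sets above the filter. At an unadjusted p under 0.05 in limma stood 14 of them (18.9%), against 12.1% of all 20220 probe sets above the filter, and 0 passed the threshold. Of 22 members with over 1 such probe set, 9 had a single sign over all of them (40.9%), against 50.7% of the 4755 genes with over 1. Apaf1 and Xiap were among the 9, and Bcl2l1, Bcl2, Bak1, Bcl2l11 and Trp53inp1 among the 13 with both signs. Casp1, Birc2 and Perp had 1 single-symbol probe set each. Casp12 had another below the filter, with a difference of 0.15 (SE 0.07), and the mean of both of its probe sets differed by 0.33.

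**Figure D4:**
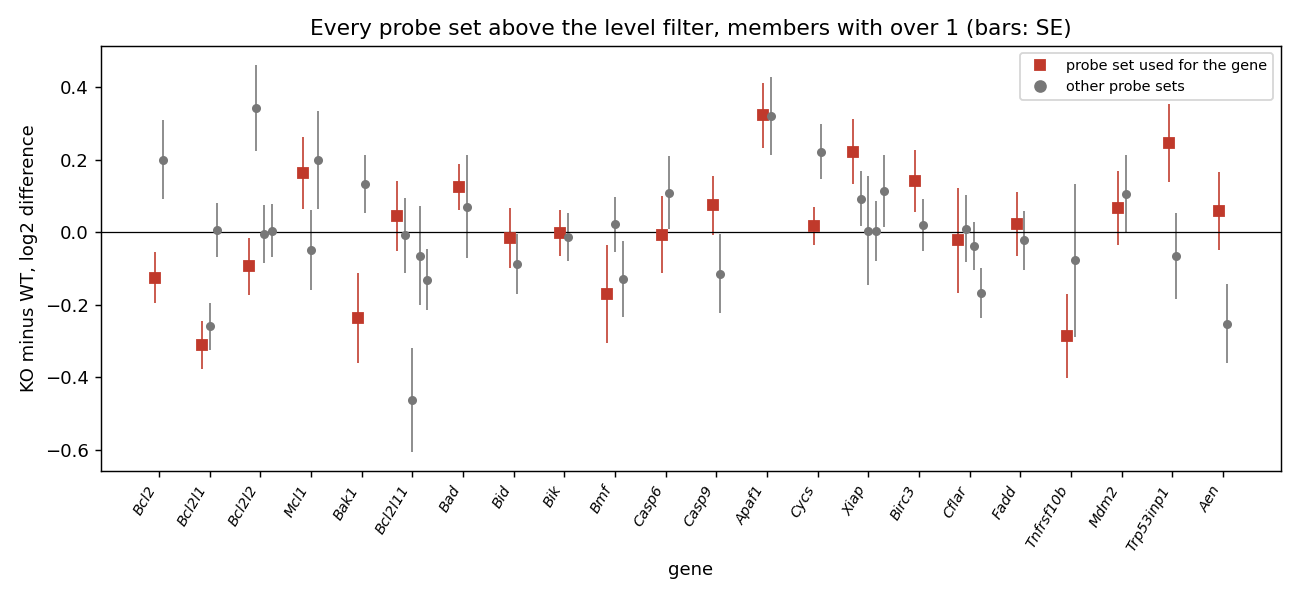
KO minus WT log2 difference (y axis) with SE of every probe set above the level filter for the 22 members with over 1 (x axis). Squares are the probe sets used for the gene; both Apaf1 probe sets lie at 0.32, while for Bcl2 and Bak1 the probe sets lie on both sides of zero.

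A limma fit that gives each array its own quality weight called 6 members, with adjusted p under 0.05, or 15.4%, against 10.7% of all genes. Higher in KO were Apaf1, Birc2, Perp and Trp53inp1 (10.3% of the members, against 7.62% of all genes), and lower were Bcl2l1 and Tnfrsf10b (5.13%, against 3.07%). Their adjusted p lay between 0.0269 and 0.0389 in that limma fit, and between 0.0807 and 0.991 over the other alternatives. With a Gapdh measure of RNA quality (the 3' minus the 5' control probe set) as a covariate, Bcl2l1, Casp1, Apaf1 and Birc2 were the 4 members at an unadjusted p under 0.05 in limma, as were 7.86% of all genes in that fit. That Gapdh difference was -0.24 to -0.15 in KO and -0.21 to -0.12 in WT, and its part in the values of Perp, at 0.17 in that fit, was not tested further. The like measure for actin was -0.30 in KO replicate 1, against -0.51 and -0.45 in KO replicates 2 and 3 and -0.50 to -0.43 in WT. No fit used it as a covariate, and its part in the values was not tested.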

How the data were processed

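RNA from 2000 sorted cells per sample was amplified over 24 cycles and hybridised to Affymetrix mouse arrays, per the labels' protocols. The deposited values are log2 levels made by the authors with RMA, per the submitters' processing notes; the sources used here name no version and no batch correction. It held 45141 probe sets and no column outside the 7 samples. Scan batch, per the labels, held 1 KO and 2 WT arrays in batch 1 and 2 of each in batch 2. Of 28898 probe sets with 1 gene symbol, the one with the highest mean was kept per gene, and the lowest 25% of genes (below 5.28) were left out. KO was compared with WT in limma 3.58.1 (R 4.3.3) with a trend and a scan batch term, two-sided, with p adjusted over all genes by Benjamini-Hochberg and a threshold of 0.05, after the fit was tested on simulated data. Differences come from this fit, and means, SD and within-batch differences from the values. In 12 of the 39 tested members at least 2 arrays shared exactly the same value, which RMA can produce and which can make a spread look small. Exact permutation tests within scan batch use batch-centred values, a correction of an uncentred version made after its values were seen. Members and lists were chosen with earlier results of these data known. Values on every array are given for the 3 members of smallest p in each role, those without overlap and those differing by at least 0.5, 20 members in all, and for others chosen after their values were seen; alternatives were run for those 20. The number of arrays limits the precision. Alternatives were 18 in all: other probe set rules, level filters, handling of scan batch, array weights, centring, a Gapdh covariate and leaving out each array.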

Additional observations from a re-analysis of the deposited data

Results flagged for a closer look

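Of 68 genes checked, 1 WT array stood apart from the other WT arrays in 3, and chance flags about 1 in 20 groups of 4. The BH3-only gene Bik was at 6.035 in WT replicate 4, where the other WT arrays lay between 5.995 and 6.002. Pecam1, an endothelial marker, was at 6.136 in WT replicate 1, while the other WT arrays shared the value 6.232. Vwf, another endothelial marker, was at 5.825 in WT replicate 4, against 5.776 to 5.783 in the others.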

How the results depend on the processing

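The alternatives were run for the 20 members that the naming rule picks, and 13 of them kept the sign of their difference under every alternative that gave a value. These were 18 per member, and 17 for Birc2, which gave none with the lowest 50% of genes left out. With array weights 6 members, 1370 of all genes and 18 genes of the other lists were called, and 17 members stood at an unadjusted p under 0.05, as did 31.8% of all genes. That last count was 3 within scan batch 1 (3.40% of all genes), with its 1 KO array, assumed to vary like the others, 16 within scan batch 2 (24.4%), 4 with the Gapdh covariate (7.86%), and 5 to 16 with 1 array left out (5.57% to 19.7%). Leaving out 1 array called 0 to 2 of all genes, 2 each without WT replicate 2 and without WT replicate 4, and 0 members. The median over the members was -0.055 within scan batch 1 and 0.008 to 0.081 with 1 array left out. Bcl2 turned to 0.20 with the probe set of largest variance and to 0.037 with the mean of all probe sets. Within scan batch 1 Mcl1 turned to -0.059, Bmf to 0.11, Tnfrsf1a to 0.036, Mlkl to -0.055 and Trp53inp1 to -0.048. With the Gapdh covariate Bmf turned to 0.066 and Tnfrsf1a to 0.037, and Bok was at -0.097 to 0.026 with 1 array left out. The cause of these changes was not tested. No paired analysis was possible because the labels give no replicate numbers that KO and WT arrays share.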

Other observations

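The WT arrays of some members split by scan batch. Zmat3 was at 8.30, 8.46 and 8.32 in the KO arrays, against 8.69 and 8.39 in the WT arrays of batch 1 and 7.95 and 8.05 in those of batch 2. Pmaip1 was at 7.34, 7.34 and 7.42 in the KO arrays, against 7.85 and 7.26 in the WT arrays of batch 1 and 6.68 and 7.03 in those of batch 2. Diablo, which encodes the antagonist of IAP proteins, had a KO minus WT difference of -0.23 within batch 1 and 0.29 within batch 2, and Birc5 of -0.27 and 0.33. The part of the scan batch in these values was not tested.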
